A study of Tupaia belangeri with 6 samples.

Results

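The nuclei described here were picked from the hippocampus of aged tree shrews by transcripts of blood vessel wall genes. A nucleus was taken when it had at least 3 unique molecular identifiers (UMIs, 1 per captured transcript) of PDGFRB, RGS5, NOTCH3, DCN, COL1A2 and TAGLN together and none of PECAM1, PTPRC, MOG, AQP4, GAD1 or NEUROD6, which mark endothelial, immune, oligodendroglial, astrocytic and neuronal nuclei. Of 37603 nuclei with at least 200 detected genes, 215 met the rule. The 187 nuclei in which PDGFRB, RGS5 and NOTCH3 had the larger sum are called the mural side, the 23 in which DCN and COL1A2 had the larger sum the fibroblast side, and 5 nuclei with equal sums stayed undivided. Because marker UMIs chose these nuclei, their levels beside other nuclei are a description and were not tested.

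The study profiled single nuclei of frozen hippocampus from 3 naturally aged tree shrews with Alzheimer's-like pathology (ALP), selected by slow maze performance, and 3 control tree shrews. No transgene or agent was used in either group, and the labels give neither the age nor the sex of the animal behind a library. Each library is numbered as in the labels. The control libraries held 8785, 3011 and 7969 nuclei with 32679011, 19748976 and 35898940 UMIs, and the ALP libraries held 5091, 7151 and 5596 nuclei with 20119934, 30520809 and 19182981 UMIs. Control library 2 stood apart in depth, with a median of 5181 UMIs per nucleus against 1747 to 2492 in the other 5 libraries. Any pair of libraries shared at most 0.465% of the barcodes of the smaller one, and no selected nucleus had a barcode that another library's selected nuclei shared.

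Mural cells are the contractile cells around brain vessels. Pericytes lie on capillaries inside the basement membrane they share with the endothelium, depend on PDGF-B signalling through the receptor PDGFRB and help to maintain the blood-brain barrier, while smooth muscle cells wrap arterioles and set vessel diameter. Vascular and meningeal fibroblasts lie outside the smooth muscle of larger vessels and in the pia, and lay down collagens and proteoglycans such as decorin (DCN). All of them lie close to the endothelial cells that line the vessel.

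RGS5, a regulator of G-protein signalling abundant in pericytes, decided most of the selection. It gave 1000 UMIs, 54.0% of all marker UMIs of the selected nuclei, was present in 82.8% of them, and reached 3 UMIs by itself in 136. TAGLN, an actin-binding protein of smooth muscle, gave 344 UMIs, of which 293 lay in 29 nuclei. NOTCH3, the Notch receptor of the vessel wall, gave 166, DCN 163, the receptor PDGFRB 117 and the collagen chain COL1A2 61. The selected nuclei had a median of 6 marker UMIs and a highest value of 71. Only 1 of the 6 genes was present in 57 nuclei, and all 6 in 3.

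Values near the threshold were graded. Among nuclei with exactly 3 marker UMIs, 48 were selected, and 85.4% of them lay in 1 of 3 vascular clusters found when all nuclei were clustered. Just outside it, 109 nuclei had exactly 2 marker UMIs and 55.0% of them lay in those clusters, while 659 had a single UMI and 11.7% lay there. Before the exclusion genes were applied, 367 nuclei reached 3 marker UMIs, and 152 were left out. NEUROD6 was present in 58 of these, AQP4 in 56, MOG in 53, PECAM1 in 26, PTPRC in 21 and GAD1 in 0. PECAM1, in most tissues an endothelial gene, was listed in 7.87% of all nuclei and in only 3.08% of the cluster led by CLDN5, PLA1A and MECOM, called the CLDN5/FLT1 cluster here.

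The mural name held only in part. Of the 187 mural-side nuclei, 139 (74.3%) also carried UMIs of at least 1 of the 4 endothelial genes CLDN5, FLT1, EMCN and VWF, which encode the main tight junction claudin of the blood-brain barrier, a VEGF receptor, endomucin and von Willebrand factor. With every nucleus thinned at random to 500 UMIs, a depth no nucleus fell below, 64.7% of the mural-side nuclei still carried one, against 2.80% of all other nuclei. The 142 mural-side nuclei in the CLDN5/FLT1 cluster made up most of the class, and 31 lay in a small cluster led by ABCC9, SLC6A12 and EBF1, with PDGFRB further down its leading genes, which is called the ABCC9/PDGFRB cluster here. The remaining 14 lay in clusters led by other genes, with a median of 8610.5 UMIs per nucleus. The 139 nuclei with endothelial UMIs are therefore named by that property below and not as pericytes.

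Depth differed between these sets. The 139 mural-side nuclei with endothelial UMIs had a median of 2489 UMIs, the 48 without them 1217.5, and 104 endothelial nuclei used for comparison (in the CLDN5/FLT1 cluster, with at least 3 UMIs of the 4 endothelial genes, no marker UMI and no excluded gene) 959. Endothelial UMIs were found in 60.2% of the 93 mural-side nuclei below the median depth of 2218 UMIs and in 88.3% of the 94 at or above it. By library, 80.6%, 66.7% and 74.2% of the control and 62.5%, 56.5% and 70.0% of the ALP mural-side nuclei carried them. These values overlapped between the groups (73.8% ± 6.97 in control and 63.0% ± 6.75 in ALP, SD, n = 3 each; two-sided exact permutation test, p = 0.200), and at 500 UMIs the means were 61.7% and 52.0% (exact permutation p = 0.500).

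Pericyte genes that the rule did not use were present in both sets. ABCC9, the regulatory subunit of the vascular KATP channel, was found at 500 UMIs in 14.4% of mural-side nuclei with endothelial UMIs and in 33.3% of those without, against 1.92% of endothelial nuclei and 0.233% of all other nuclei. HIGD1B, a mitochondrial protein abundant in pericytes, was found in 43.2% and 37.5%, against 1.92% and 0.399%. NDUFA4L2, a hypoxia-responsive mitochondrial protein, followed with 18.7% and 6.25%, against 1.92% and 0.152%. The betaine and GABA transporter SLC6A12 was found in 25.9% and 22.9%, against 0.962% and 0.254%. All 4 genes were thus present in both mural-side sets and rare in the endothelial nuclei, while EBF1, a transcription factor of the vessel wall, was found at 39.6%, 41.7% and 42.3% in the same 3 sets and did not separate them. The endothelial nuclei were chosen to hold no UMI of the rule's genes, and the part of that choice in these low values was not tested. SLC6A12 was not particular to the mural side, with 43.5% of the 23 fibroblast-side nuclei. ABCC9, HIGD1B and NDUFA4L2 were found in 0 of these 23, which allows up to 13.0%.

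Endothelial genes outside the 4 used for the split were frequent in the first set and rare in the second. MECOM, a transcription factor of arterial endothelium, was found at 500 UMIs in 41.0% of mural-side nuclei with endothelial UMIs, in 0 of the 48 without (which allows up to 6.25%) and in 58.7% of the endothelial nuclei. ERG, another endothelial transcription factor, gave 33.1%, 0 of 48 and 46.2%, and the secreted protein EGFL7 gave 44.6%, 2.08% and 67.3%. MAL, a membrane raft protein better known from myelin, was found in 57.6% of the set with endothelial UMIs, 2.08% of the set without, 41.3% of the endothelial nuclei and 2.49% of all other nuclei.

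**Figure D1:**
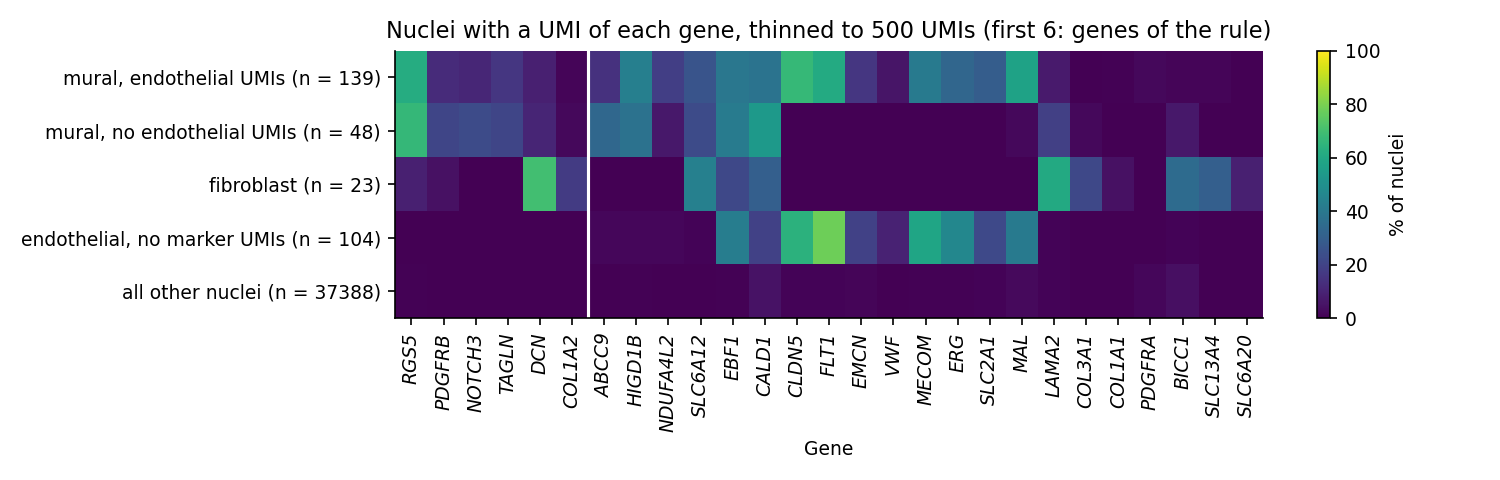
Percentage of nuclei with at least 1 UMI of each gene (columns) after thinning every nucleus to 500 UMIs, in 5 sets of nuclei (rows), with the 6 genes of the rule left of the white line. CLDN5 was found in 66.9% of the mural-side nuclei with endothelial UMIs and, by construction, in none without, whereas HIGD1B was found in 43.2% and 37.5%.

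Both programmes were often read from the same nucleus. UMIs of ABCC9, HIGD1B, NDUFA4L2 or SLC6A12 occurred together with UMIs of MECOM, ERG, EGFL7 or the glucose transporter SLC2A1 in 121 of 187 mural-side nuclei (64.7%), while 35 carried the first 4 genes alone, 17 the second 4 alone and 14 neither. Nuclei with both had a median of 2748 UMIs, those with the first programme alone 1207 and those with the second alone 2273, while endothelial nuclei with the second alone had 958. At 500 UMIs both were still read in 77 mural-side nuclei (41.2%), against 5.77% of the endothelial nuclei and 0.198% of all others. The part of free RNA and of doublets in this was not tested, and no doublet caller was run. On the fibroblast side, 14 of 23 nuclei carried the first 4 genes alone at full depth.

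**Figure D2:**
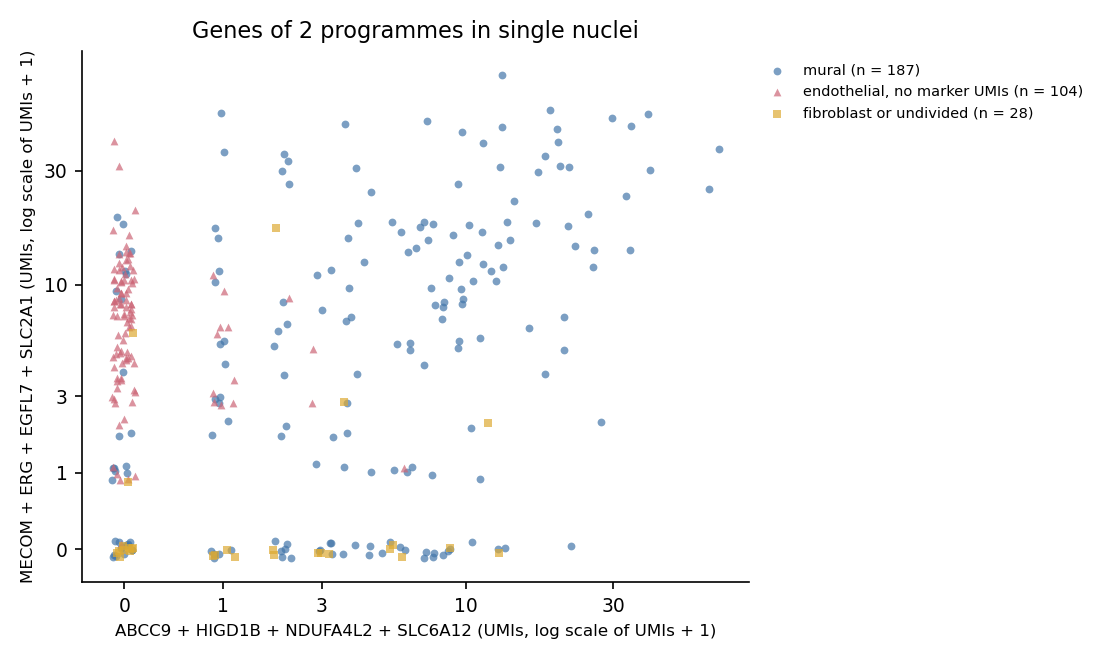
UMIs per nucleus of 4 mural genes (x axis) and 4 endothelial genes (y axis), both on a log scale of UMIs + 1 with small jitter, for 187 mural-side nuclei, 104 endothelial nuclei without marker UMIs and 28 fibroblast-side or undivided nuclei. Of the mural-side nuclei, 121 lie above 0 on both axes and 35 on the x axis alone.

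Against all nuclei that were not selected, the mural side was led by genes of both programmes. Folds of CPM (the UMIs of a gene per 1000000 UMIs summed over the nuclei of a set, with 1 CPM added to both sides) were 188 for RGS5, 175 for HIGD1B, 139 for CLDN5, 124 for NDUFA4L2, 122 for the nitric oxide synthase trafficking protein NOSTRIN, 118 for PLA1A, 112 for TM4SF1, 107 for SRARP, 106 for the flow-responsive factor KLF2 and 104 for the Lutheran glycoprotein BCAM. Folds of MECOM, ERG, SLC6A12, EBF1 and FLT1 were 93.6, 93.4, 92.9, 85.6 and 82.6. Each of the 20 largest folds had the same direction in 6 of 6 libraries.

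Most contractile genes with UMIs were at least 2-fold higher than in other nuclei, but the defining ones were at or near 0 in the whole data set. Of 17 listed contractile genes, 10 had UMIs on the mural side and 8 were at least 2-fold higher than in all other nuclei. The list summed to 2233 CPM on the mural side against 232 CPM in all other nuclei. Of the 1354 UMIs behind this mural-side sum, CALD1 gave 691, and TAGLN, which the rule used, 209. The calmodulin- and actin-binding protein CALD1 was found in 84.0% of mural-side nuclei at 1139 CPM, against 108 CPM in all other nuclei, and tropomyosin TPM1 reached 469.9 CPM against 68.5. The defining smooth muscle genes ACTA2 (smooth muscle actin) and MYH11 (smooth muscle myosin) had no UMI in the mural side. ACTA2 was at 0 in all 37603 nuclei and MYH11 gave only 52 UMIs among the other nuclei, and the pericyte gene VTN was at 0 throughout. KCNJ8, the pore of the vascular KATP channel, gave 1 UMI in the mural side and 5 elsewhere. Levels of these genes therefore carried no information on which mural cells were present. TAGLN was the only gene of the rule present in 3 nuclei, with 71 and 21 UMIs in ALP library 3 and 11 in ALP library 2.

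The fibroblast side was led by matrix genes, in part outside the rule. The 23 fibroblast-side nuclei were led over other nuclei by COL1A2 (283-fold), the matrix protein FBLN1 (225-fold), DCN (217-fold), SLC6A20 (190-fold), PI16 (188-fold) and the sulfate transporter SLC13A4 (186-fold), and 21 of them lay in a cluster led by SLC13A4, SLC6A20 and SLC22A6, called the SLC6A20/COL1A2 cluster here. FBLN1 was higher in 4 of 6 libraries and SLC6A20 in 3 of 6, with 29 of its 36 UMIs in ALP library 3. Of genes outside the rule, the laminin chain LAMA2 was found in 87.0% of fibroblast-side nuclei at 1675 CPM against 27.3 CPM in all other nuclei, and the cystine transporter SLC7A11 in 82.6% at 1534 CPM against 32.1. At 500 UMIs LAMA2 was found in 60.9% and SLC7A11 in 47.8%, against 0.939% and 2.40% of all other nuclei. The fibrillar collagen COL3A1 was found in 39.1% of the fibroblast-side nuclei, and in 21.7% at 500 UMIs against 0.0535% of all other nuclei. PDGFRA, a fibroblast and oligodendrocyte progenitor receptor, was found in 39.1% at full depth against 5.07% of all other nuclei, with median depths of 2188 and 2306 UMIs. At 500 UMIs it was found in 0 of the 23, which allows up to 13.0%, and in 1.59% of all other nuclei, so the thinned counts could not show a difference.

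Many leading genes of one side were at or near 0 on the other. MAL, FLT1, MECOM, ERG, NDUFA4L2 and ABCC9 had no UMI on the fibroblast side, so that their mural levels were at least 54.7, 45.7, 28.1, 19.1, 13.1 and 9.35 times higher, with 3 UMIs over the 23 nuclei as the floor. In the other direction SLC6A20 had no mural UMI and was at least 79.2 times higher, with 3 UMIs over the 187 nuclei as the floor. The developmental factor EYA1 was 90.4-fold higher on the fibroblast side, SLC13A4 60.1-fold, the potassium channel KCNK2 53.1-fold and the collagen chain COL1A1 30.7-fold. SLC6A12 (453 CPM on the mural and 783 CPM on the fibroblast side) and the scavenger receptor COLEC12 (416 and 729 CPM) were present on both sides and near 3.89 and 10.6 CPM in all other nuclei.

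The selected nuclei were a smaller share of every ALP library than of any control library. The control libraries gave 110, 16 and 35 selected nuclei, which is 1.25% (95% Wilson interval 1.04 to 1.51), 0.531% (0.327 to 0.861) and 0.439% (0.316 to 0.610) of their nuclei. The ALP libraries gave 12, 27 and 15, which is 0.236% (0.135 to 0.412), 0.378% (0.260 to 0.549) and 0.268% (0.163 to 0.442). These intervals cover counting error only. The groups did not overlap, and control library 1 lay far above the rest and supplied 110 of the 215 nuclei. Mean shares were 0.741% ± 0.445 and 0.294% ± 0.0743 (SD, n = 3 each), with p = 0.100 in a two-sided exact permutation test, the smallest value that 3 against 3 libraries can give. Without control library 1 the control mean was 0.485% and the exact permutation p was 0.200.

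The mural side showed the same order. It made up 1.17%, 0.399% and 0.389% of control and 0.157%, 0.322% and 0.179% of ALP nuclei, without overlap (means 0.653% and 0.219%; exact permutation p = 0.100). Counted only in the 3 vascular clusters, the means were 0.601% and 0.176%, with control library 2 and ALP library 2 both at 0.266%, and with at least 5 marker UMIs they were 0.417% and 0.138%. Both of these overlapped (exact permutation p = 0.200 each). Without control library 1 the mural-side control mean was 0.394%, still without overlap (exact permutation p = 0.200). The fibroblast side, with 6, 4 and 4 control and 4, 2 and 3 ALP nuclei, gave 0.0683%, 0.133% and 0.0502% against 0.0786%, 0.0280% and 0.0536%. These overlapped, with means of 0.0838% and 0.0534% (exact permutation p = 0.500). The mural part of the divided nuclei was 94.5%, 75.0% and 88.6% in control and 66.7%, 92.0% and 76.9% in ALP libraries, and it overlapped too (exact permutation p = 0.500).

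Whether the groups overlapped depended on how the nuclei were counted, here in part by counts chosen after seeing the data. When nuclei of the CLDN5/FLT1 cluster and those outside the vascular clusters were left out, the remaining members were 0.182% ± 0.0202 of control and 0.0808% ± 0.0277 of ALP nuclei, again without overlap (exact permutation p = 0.100). With at least 5 marker UMIs the means were 0.450% and 0.185%, without endothelial UMIs 0.237% and 0.136%, and with all nuclei of the ABCC9/PDGFRB and SLC6A20/COL1A2 clusters 0.589% and 0.362%. All 3 of these overlapped, each with an exact permutation p of 0.200. The ABCC9/PDGFRB cluster held 24, 1 and 27 control nuclei and 0, 10 and 5 ALP nuclei, and the 0 of 5091 nuclei in ALP library 1 allows up to 0.0589%.

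**Figure D3:**
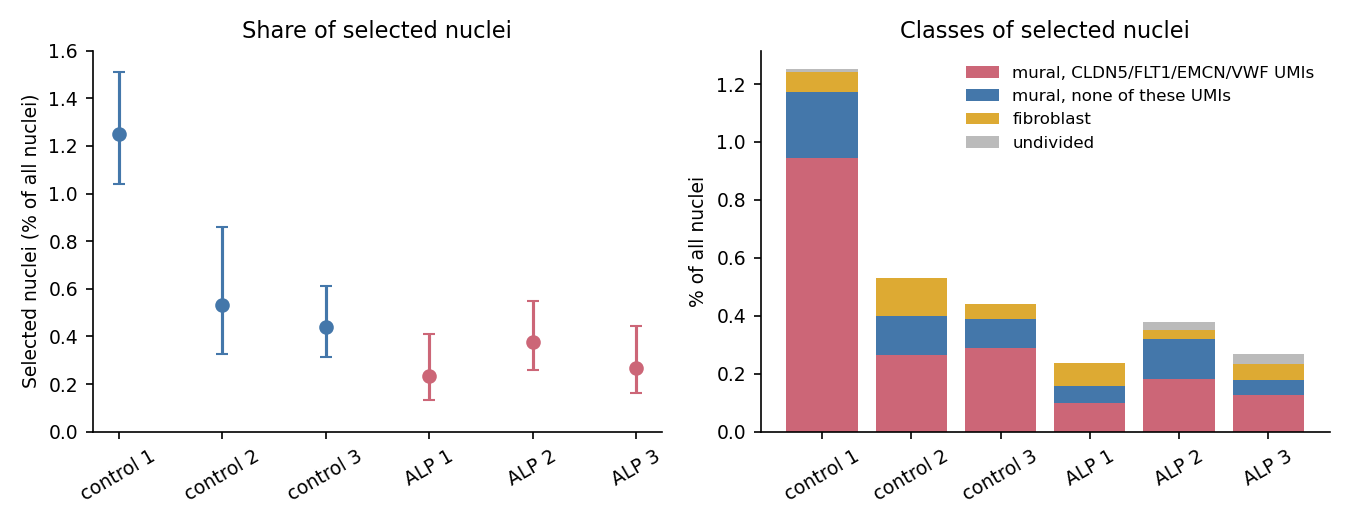
Left, percentage of each library's nuclei that met the rule, 1 point per library with 95% Wilson intervals; right, the same percentage stacked by class, with the mural side split by UMIs of CLDN5, FLT1, EMCN or VWF. The 3 ALP libraries lie between 0.236% and 0.378% of nuclei for the whole selection, below the lowest control library at 0.439%.

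The CLDN5/FLT1 cluster was lower in the ALP libraries too. Its nuclei that were not selected made up 1.79%, 1.36% and 0.828% of control and 0.491%, 0.615% and 0.679% of ALP nuclei, again without overlap (means 1.33% ± 0.480 and 0.595% ± 0.0956, SD, n = 3 each; exact permutation p = 0.100). A smaller share in ALP was therefore not particular to the selected nuclei.

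The ratio of selected to endothelial-rule nuclei overlapped between the groups. It was 1.69, 0.593 and 0.189 in control and 0.571, 0.871 and 0.789 in ALP libraries (exact permutation test on log2 ratios, p = 0.800). The endothelial rule (at least 3 UMIs of CLDN5, FLT1, PECAM1, EMCN and VWF, and no UMI of the 6 marker genes or of PTPRC, MOG, AQP4, GAD1 or NEUROD6) counted 348 nuclei, of which only 106 lay in the CLDN5/FLT1 cluster (PECAM1 was listed in 7.94% of the nuclei outside that cluster). The selected nuclei had library medians of 2260, 2095 and 2061 UMIs in control and 4312, 1823 and 2209 in ALP (exact permutation p = 0.800). Their median mitochondrial share was 0.134%, 0.142% and 0.139% in control and 0.1000%, 0.0184% and 0.133% in ALP libraries (exact permutation p = 0.100), so that ALP library 3 lay just below control library 1. With at least 5 marker UMIs the groups overlapped (means 0.259% and 0.214%, exact permutation p = 0.800), and its part in the other results was not tested.

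Levels of the genes of the rule were compared within the mural side. RGS5 stood at 1806, 1927 and 1897 CPM in control and at 865, 1112 and 1202 CPM in ALP libraries, so that each ALP library lay below each control library. RGS5 supplied 62.8% of the marker UMIs that chose the mural side, so this is a description and no test is given. PDGFRB stood at 143, 339 and 320.1 CPM in control and 49.4, 227 and 107 in ALP, and NOTCH3 at 248, 365 and 225 against 198, 418 and 187, and both overlapped. The rule needs 3 marker UMIs, most of which came from RGS5, so the share of selected nuclei and the level of RGS5 in a nucleus cannot be told apart.

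HIGD1B, ABCC9 and LAMA2, outside the rule, overlapped between the groups. HIGD1B gave 1512, 781 and 1150 CPM in control and 445, 861 and 1148 CPM in ALP mural-side nuclei, and ABCC9 gave 363, 130.2 and 320.1 against 49.4, 299 and 240.4. CLDN5, from the endothelial programme, gave 3302, 1172 and 2205 CPM against 2348, 980.4 and 1949.5 CPM. On the fibroblast side DCN, which the rule used, gave 263, 920.2 and 964 CPM in control and 1469, 1761 and 629.6 CPM in ALP, and LAMA2 gave 790, 2352 and 3749 against 1808, 5636 and 1259. With 2 to 6 fibroblast-side nuclei per library, no gene test was run there, since only control library 1 reached the minimum of 5 nuclei set for a summed library.

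Genes were tested between ALP and control on UMIs summed over the selected nuclei of each library. Of 1355 genes tested, 13 were called at an adjusted p under 0.05 and a log2 fold change beyond 0.25 (0.959%), 12 of them higher and 1 lower in ALP. An unadjusted p under 0.05 was found for 208 genes, 150 higher and 58 lower. Without the filter on low counts 51 higher and 15 lower genes were called. The unadjusted p was then under 0.05 for 575 higher and 548 lower genes. With the filter, leaving out 1 library gave between 1 call (without control library 1) and 131 calls (without control library 2). The 3 ALP libraries lay all above the 3 controls for 9.89% of the genes tested and all below for 6.72%. The 6 genes of the rule are given as a description, since they chose the nuclei. RGS5 alone of them did not overlap (log2 fold change -0.97), and the others had log2 fold changes of -0.69 (PDGFRB), -0.0013 (NOTCH3), 0.56 (DCN), 0.24 (COL1A2) and 1.55 (TAGLN, -0.41 on the mural side alone).

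KCNMA1, a calcium-activated potassium channel listed with the meningeal fibroblast and vessel tone genes, lay higher in every ALP library without passing the test. It stood at 196, 535 and 267 TMM-scaled CPM in control and at 663, 1180 and 874 in ALP mural-side nuclei (log2 fold change 1.62, edgeR adjusted p = 0.0727). Over all selected nuclei its log2 fold change was 1.38 (adjusted p = 0.152). KCNMA1 is not particular to the vessel wall, with 256 CPM on the mural side against 665 CPM in all other nuclei. The 14 mural-side nuclei outside the vascular clusters held 78 of its 155 mural-side UMIs, and their part in the difference was not tested. KCNMA1 was not alone in this. Over all selected nuclei RYR3, PCDH15 and SNAP25 also lay above without passing (edgeR adjusted p = 0.053 to 0.085). HES1 (-1.14), TGFBR2 (-0.947), MEF2C (-0.776) and ITPR1 (-0.641), among others, lay below in every ALP library without passing (adjusted p = 0.201 to 0.565).

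**Figure D4:**
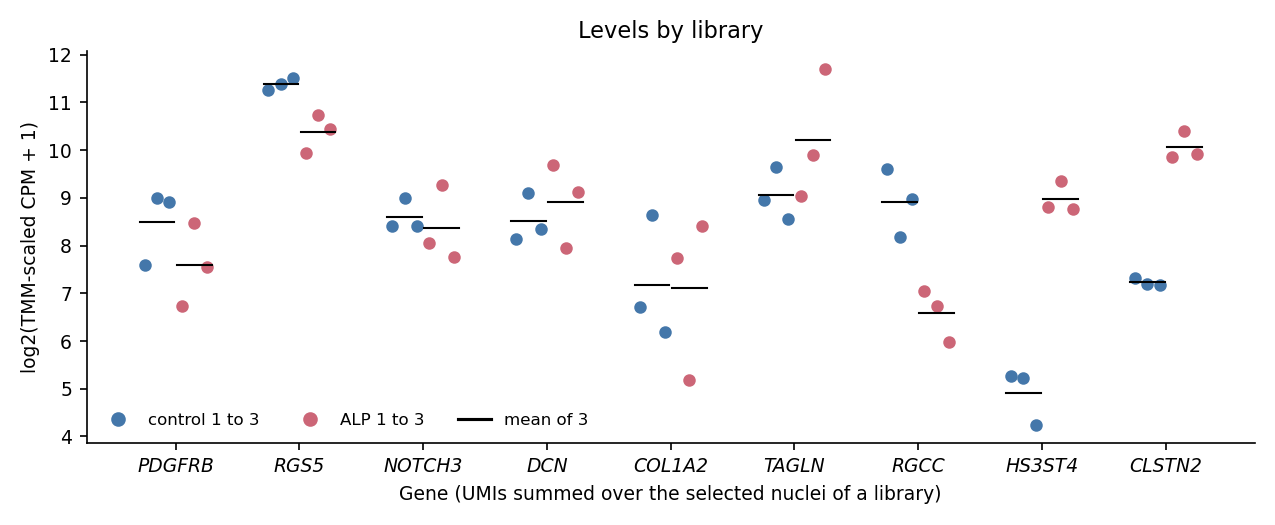
Level of the 6 genes of the rule and of RGCC, HS3ST4 and CLSTN2 in the selected nuclei of each library (log2 of TMM-normalised CPM + 1), 1 point per library with the mean of 3 as a bar. The ALP points of RGS5 and RGCC (RGCC at 62 to 132 CPM) lie below all controls, those of HS3ST4 (434 to 652 CPM) and CLSTN2 lie above, and those of the other 5 genes overlap.

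The 12 genes that rose are given singly, and no share of neuronal genes among them was compared with that over all genes tested. HS3ST4, a heparan sulfate sulfotransferase, stood at 37.6, 36.4 and 17.9 CPM (here scaled by TMM) in control and at 449, 652 and 434 in ALP libraries. This was the lowest p of all genes (log2 fold change 3.91 ± 0.50, SE, edgeR adjusted p = 0.000934). The HS3ST4 control values rest on 9, 1 and 1 UMIs, each below the minimum count set for the filter on low counts. HS3ST4 passed that filter through the ALP libraries, where the nuclei outside the vascular clusters alone gave 16, 18 and 12 UMIs. CLSTN2, a postsynaptic calsyntenin, stood at 159, 146 and 143 against 925, 1360 and 961 (2.83 ± 0.45, adjusted p = 0.00739), again without overlap. HS3ST4 did not pass without ALP library 2 (log2 fold change 3.73, adjusted p = 0.148), and CLSTN2 did not pass without control library 1 (2.74, adjusted p = 0.138) or control library 3 (2.66, adjusted p = 0.0769), with folds about as large. BRINP1, a neuronal protein induced by bone morphogenetic protein and retinoic acid, rose by 2.56 on the log2 scale (adjusted p = 0.00924), SH3GL2, an endophilin of synaptic vesicle recycling, by 2.73 (adjusted p = 0.0191), and NYAP2, a neuronal phosphoprotein, by 3.17 (adjusted p = 0.0319). On leaving out each of the 6 libraries in turn, BRINP1 passed in 4 fits, SH3GL2 in 2 and NYAP2 in 1, with log2 fold changes of 2.36 to 2.75, 2.21 to 3.01 and 1.94 to 4.06. Each of these 3 did not pass without control library 1 or control library 3. The other 7 were MCTP1, CHST9, NRP1, DMDli1, CNKSR2, KHDRBS3 and RAB26. Like HS3ST4, the genes NYAP2, CHST9 and RAB26 had fewer UMIs in every control library than the minimum count of the filter. The filter scales that count by library size and asks for it in 3 libraries. None of the 12 genes reached it in all 3 control libraries, so all 12 were tested only through their ALP levels. Their adjusted p carry that limit.

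Most of these transcripts came from few nuclei. The 15 selected nuclei outside the 3 vascular clusters, 2, 4 and 0 in control and 2, 5 and 2 in ALP libraries, held 15.5% of the UMIs of the selected nuclei but 771 of the 1267 UMIs of the 12 genes that rose (60.9%). They held 4.52%, 40.8% and 0% of the control and 35.1%, 39.7% and 30.5% of the ALP UMIs, so that control library 2 resembled the ALP libraries in this. Summed over the 12 genes, the level was 642, 1141 and 651 CPM in control and 4248, 5177 and 3315 CPM in ALP selected nuclei, and between 3941 and 5127 CPM in all other nuclei of every library. Within the 3 vascular clusters it was 585, 245 and 651 CPM against 689, 2591 and 1344 CPM, and the 12 genes were not among the 714 that passed the filter on low counts there, so their change within these clusters was not tested. Of the 714 genes 0 were called (edgeR), with 30 at an unadjusted p under 0.05. Markers of excitatory neurons were summed over 8 genes, with NEUROD6 at 0 by the rule. Within the 3 vascular clusters they gave 620, 491 and 694 CPM in control and 318, 2644 and 764 CPM in ALP libraries, which overlapped. Over all selected nuclei they moved the same way as the 12 genes, with 721, 1162 and 694 CPM in control and 1513, 3455 and 1776 CPM in ALP. Summed markers of most other cell types overlapped between the groups and lay between 169 and 623 CPM for astrocytes, 0 and 264 for oligodendrocytes, 84.5 and 291 for inhibitory neurons, 31.7 and 166 for ependymal and choroid plexus cells and at most 41.5 for T cells and 10.7 for blood. Progenitors of oligodendrocytes (OPC markers) gave 306, 353 and 107 CPM against 378, 729 and 458, and microglia and macrophage markers, with PTPRC at 0 by the rule, 143, 291 and 181 CPM against 464, 401 and 366, each ALP value above each control in both, and the part of these cells in the results was not tested.

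**Figure D5:**
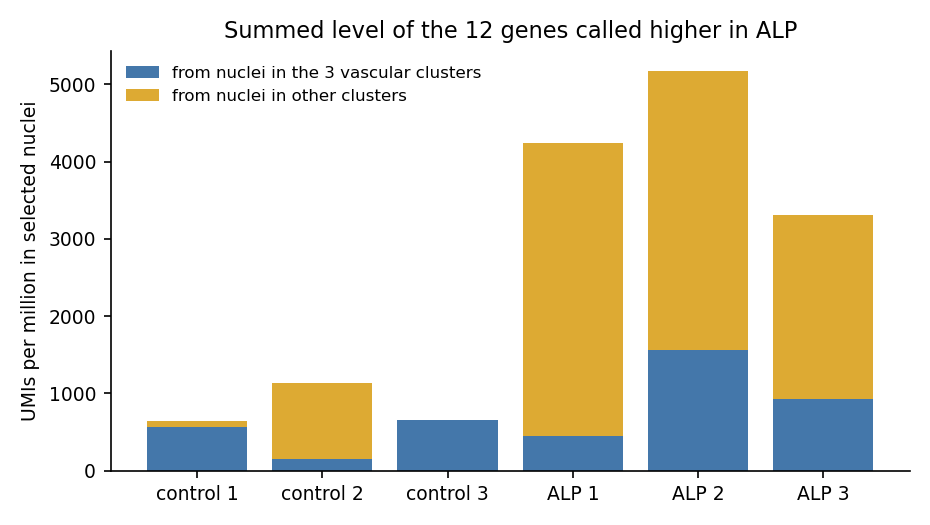
Summed level of the 12 genes higher in ALP in each library's selected nuclei (CPM), with the part from nuclei inside the 3 vascular clusters and the part from the 15 nuclei outside them drawn apart. The totals are 642 to 1141 CPM in control and 3315 to 5177 CPM in ALP libraries, and 60.9% of the UMIs came from the 15 nuclei.

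RGCC, a regulator of the cell cycle also known from endothelium, was the 1 gene that fell. It stood at 780, 291 and 502 normalised CPM in control and at 132, 106 and 62 in ALP libraries, which did not overlap (log2 fold change -2.43 ± 0.50, SE, edgeR adjusted p = 0.0319). None of its 236 UMIs lay outside the vascular clusters. Its level was 466 CPM in mural-side nuclei with endothelial UMIs, 47.6 CPM in those without and 222 CPM in the endothelial nuclei, levels that pool libraries, and control library 1 gave 187 of the 236 UMIs. It rests on 5, 6 and 2 UMIs in the ALP libraries. RGCC passed the filter on low counts only through the 3 control libraries, where it was high, and its adjusted p carries that limit. Within the 3 vascular clusters its log2 fold change was -2.07 and no longer passed (adjusted p = 0.365), nor did it without ALP library 1 (-2.60, adjusted p = 0.0731), 2 (-2.49, adjusted p = 0.148) or 3 (-2.16, adjusted p = 0.194), with folds about as large. RGCC passed without control library 2 (-2.63, adjusted p = 0.00453) and was not tested without control library 1 or 3. With the replicate number as a block it did not pass (-2.21, adjusted p = 0.0786). TSPAN13, the protease HTRA1, the basement membrane proteoglycan AGRN and KLF2 came next, with log2 fold changes of -1.77, -1.60, -1.45 and -1.39, and none passed (adjusted p = 0.0911 to 0.124).

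Of the 44 genes of the pathway lists outside the rule that were tested in the selected nuclei 0 were called, beside 0.959% of all genes. The 5 pericyte genes tested outside the rule (of 16 listed) had log2 fold changes from -0.73 to -0.035, with a median of -0.61 beside -0.031 over all 1355 genes. The 5 fibroblast matrix genes outside the rule had values from 0.0069 (LAMA2) to 1.63 (FBLN1) with a median of 0.68, and APOD, a lipocalin, had 0.82. The 6 of vessel growth and Notch signalling outside the rule ran from -1.14 to -0.071 (median -0.43), the most abundant being FLT1, and the 7 endothelial markers, led by CLDN5, from -1.15 to -0.26 (median -0.48). Contractile genes without TAGLN (3 tested, median -0.26), meningeal and barrier fibroblast genes (5, median -0.15), basement membrane genes (4, median -0.15), genes of vessel tone (10, median -0.31), vascular transcription factors (2, median -0.80), genes of amyloid and lipid clearance (4, median -0.021) and inflammation and complement genes (3, median -0.87) completed the lists. Nuclei outside the 3 vascular clusters gave 4.52%, 40.8% and 0% of the control and 35.1%, 39.7% and 30.5% of the ALP UMIs summed here. Their part in these medians was not tested.

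Restricted to the mural side, 47 of 1032 genes were called (4.55%), 46 higher and 1 lower in ALP. An unadjusted p under 0.05 was found for 148 higher and 38 lower genes. Without the filter on low counts 42 higher and 12 lower genes were called. The unadjusted p was then under 0.05 for 541 higher and 544 lower genes. With the filter, leaving out 1 library gave 2 (without ALP library 2) to 257 calls (without control library 2). Of the 1032 genes, 12.2% had all ALP libraries above and 8.33% all below the controls. The same genes led, with log2 fold changes of 4.21 for HS3ST4, 3.38 for BRINP1, 2.98 for CLSTN2, 3.34 for SH3GL2 and 3.40 for NYAP2, and RGCC was the gene that fell (-2.66, adjusted p = 0.0244). On leaving out 1 library, BRINP1 and CLSTN2 passed in all 6 fits, HS3ST4 in 5, SH3GL2 in 3 and NYAP2 in 1. RGCC did not pass when any 1 of the ALP libraries was left out (adjusted p up to 0.206, log2 fold changes of -3.00 to -2.26 over the 4 fits that tested it) and was not tested without control library 1 or 3. Of the 29 genes of the pathway lists outside the rule that were tested, 1 was called (3.45%), near the 4.55% over all genes. This was RYR3, an intracellular calcium channel, which stood at 45.3, 535 and 103 normalised CPM against 1080, 1080 and 771 (log2 fold change 2.66, adjusted p = 0.0323), with 94 of its 120 mural-side UMIs in the 14 nuclei outside the vascular clusters. PCDH15, here a marker of oligodendrocyte progenitors (3.05, adjusted p = 0.0224), and the synaptic protein SNAP25 (1.66, adjusted p = 0.0323) also rose. RYR3, PCDH15 and SNAP25 each passed in 1 of the 6 fits with a library left out, that without control library 2. None of the named genes that rose reached the filter's minimum count, scaled by library size, in all 3 control libraries. They were therefore tested only through their ALP levels, and RGCC only through its control levels. Their adjusted p and the fits with a library left out carry that limit. The 4 pericyte genes tested outside the rule had a median of -0.46, and 0 were called. The part of the 14 nuclei outside the vascular clusters in that median was not tested. The 2 fibroblast matrix genes tested on the mural side, LAMA2 (-0.018) and APOD (0.46), had a median of 0.22, below that over all selected nuclei. With the vascular clusters alone, 0 of 477 genes were called, with 12 at an unadjusted p under 0.05. Only 2 of the 47 genes were among those 477, so the others were not tested there.

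The ALP change was also set against that in nuclei meeting the endothelial rule in the same libraries, of which 242 of 348 lay outside the CLDN5/FLT1 cluster. None of 3170 genes had a different change in the selected and in these nuclei at the same thresholds (0%; edgeR interaction test with the library as a block, lowest adjusted p 0.116), while 405 had an unadjusted p under 0.05. Against endothelial nuclei counted without PECAM1 and within the CLDN5/FLT1 cluster, a comparison chosen after seeing the data, 35 of 1685 genes were called, 33 with the higher and 2 with the lower change in the selected nuclei, and 214 had an unadjusted p under 0.05. The number of genes whose change differed from that in endothelial nuclei thus depended on which nuclei were counted as endothelial. Among changed genes that passed the filter, a simulated 4-fold difference was recovered for 15.1% in the first of these tests. For the change within the selected nuclei this was 91.6%.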

How the data were processed

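Whole-number UMI counts per gene and barcode were deposited by the authors, unnormalised, 1 10x 3′ matrix per library. The labels name Cell Ranger 3.1.0 and the matrix headers 6.1.2, and the genome build is not given in the sources used here. All 37603 barcodes were kept without an upper limit or doublet caller. Nuclei were clustered (scanpy 1.11.5, 2000 variable genes, 30 components, 20 neighbours, Leiden resolution 2). Shares were compared by two-sided exact permutation over 6 libraries. UMIs were summed per library for sums of at least 5 nuclei and tested with edgeR 4.0.16 (quasi-likelihood, TMM, minimum count 10, Benjamini-Hochberg adjustment). DESeq2 1.42.0 was an alternative, as were other filters, normalisations, marker thresholds and left-out libraries. In simulated data for the test over the selected nuclei, 200 genes were changed 2-, 4- or 8-fold, and 171, 167 and 158 of them passed the filter on low counts. Of those that passed, 5.26%, 91.6% and 100% were recovered. Named genes were those of the rule, the lists, the 5 lowest p per direction without overlap between groups, and the largest folds. The members and lists were chosen with earlier results of these data known. Some alternatives were chosen after seeing the data. The study's mixed model over nuclei was not used, since nuclei of 1 animal are not replicates.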

Additional observations from a re-analysis of the deposited data

How the results depend on the processing

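The difference in the share of selected nuclei kept its sign in all 14 alternatives, with leave-one-out values from -0.598 (without control library 3) to -0.192 percentage points (without control library 1). The log2 ratio to endothelial nuclei, 0.35, turned to -0.71 with at most 2500 genes and 5% mitochondrial UMIs and to -0.57 with endothelial nuclei counted without PECAM1 and within the CLDN5/FLT1 cluster, 2 changes at once (chosen after seeing the data), and ranged from -0.45 (without control library 3) to 1.13 on leaving out libraries. The difference in median UMIs per nucleus, 643, ranged from -123 to 1122, and in median genes from -113 to 375, with the lowest values without ALP library 1. The 13 calls in the selected nuclei became 23 with DESeq2, of which 10 were shared, 5 with upper-quartile normalisation, 66 without a filter, 24 with a minimum count of 3, and 3 with 5 or more marker UMIs. With at most 2500 genes and 5% mitochondrial UMIs, set together, 0 were called (350 tested, 14 at an unadjusted p under 0.05). In the 3 vascular clusters 0 were called, and without endothelial UMIs 0 (232 tested, 12 at an unadjusted p under 0.05, chosen after seeing the data). But 0, 1 and 0 of the 13 genes were tested in these 3 settings, so these counts say nothing of the others. Leaving out a library gave 1 (without control library 1) to 131 calls (without control library 2). Other causes were not tested. The 47 mural-side calls became 37 with DESeq2 (33 shared) and 43 with upper-quartile normalisation (42 shared). They became 54 without a filter (18 shared) and 72 with a minimum count of 3 (38 shared). Counts were 0 with 5 or more marker UMIs (466 tested, 27 at an unadjusted p under 0.05). They were 0 with at most 2500 genes and 5% mitochondrial UMIs, set together (258 tested, 9 at an unadjusted p under 0.05), and 0 in the 3 vascular clusters. In these settings 2, 0 and 2 of the 47 genes were tested. Leaving out a library gave 2 (without ALP library 2) to 257 mural-side calls (without control library 2). The 0 interaction calls became 13 without a filter and 35 with the other endothelial count, and 0 to 1 on leaving out a library. With the replicate block 4 genes were called in the selected nuclei, 3 of them among the 13 and RGCC not (log2 fold change -2.21, adjusted p = 0.0786), and 51 on the mural side. The labels do not say that the numbers pair the samples. Deviations of same-numbered libraries correlated at 0.019, 0.056 and -0.055, and those of differently numbered libraries at -0.094 to 0.11. With values this close to each other, the correlations cannot decide whether same-numbered libraries belong together. Upper-quartile normalisation moved the median of all genes to -0.11. Fibroblast-side gene tests and their alternatives were not run, since only control library 1 reached the minimum of 5 nuclei set for them.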
